A study of Mus musculus with 24 samples.

Results

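Immunoglobulin constant genes and the J chain gene were followed in RNA of sorted CD4 T cells. The set holds 10 of the 39056 genes of the count table, found by matching Ensembl IDs to GENCODE M21 symbols: the heavy chain constant genes Ighm, Ighd, Ighg1, Ighg2b, Ighg2c, Ighg3 and Igha, the light chain constant genes Igkc and Iglc1, and Jchain. The mice were female NZBWF1/j animals, hybrids of the NZB and NZW strains that develop a lupus-like autoimmune disease with age. At 23 weeks, treated mice were started on recombinant mouse OX40L, which binds the T cell costimulator OX40, plus recombinant mouse JAG1, which binds Notch receptors, each at 2 mg/kg into the peritoneum weekly for 3 weeks. Control mice of the same age and sex were given PBS, and cells were taken at week 26. Each treatment arm gave 4 sorted subsets with 3 libraries each, so 24 libraries in 8 groups: conventional cells (Tconv, CD4+CXCR5-GITR-), regulatory cells (Treg, CD4+CXCR5-GITR+), follicular helper cells (TFH, CD4+CXCR5+PD1Hi GITR-/low) and follicular regulatory cells (TFR, CD4+CXCR5+PD1Hi GITRHi). The gates name no B cell marker, and the labels name no tissue. Whether the 3 libraries of a group stem from different animals is not said in the labels, and the p-values therefore reflect library spread that may be technical.

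Antibodies are made by B cells and plasma cells, and each antibody pairs heavy chains with kappa or lambda light chains. A B cell first uses the mu and delta constant genes (Ighm, Ighd), and class switching moves the rearranged variable region to a gamma, epsilon or alpha gene further along the locus. Jchain encodes the joining chain that links IgM pentamers and IgA dimers in antibody-secreting cells, and T cells are not known to make antibody protein. Germline transcripts of unrearranged constant genes, which lack a V segment, are also made in lymphoid cells.

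In mm10, the heavy chain members lie on the minus strand of chromosome 12 in the order of switching. Ighm spans chr12:113418558-113422730 and Ighd chr12:113406604-113416324. Then follow Ighg3 at chr12:113356224-113361232, Ighg1 at chr12:113325240-113330523, Ighg2b at chr12:113302965-113307933, Ighg2c at chr12:113285325-113288932 and Igha at chr12:113254830-113260236. Igkc lies on the plus strand at chr6:70726435-70726966, Iglc1 on the minus strand at chr16:19061618-19062071 and Jchain on the minus strand at chr5:88519809-88527891. No member's exons overlap the exons of another annotated gene.

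The 4 gamma genes are close copies of each other, and their hinge exons are where they differ plainly, so these exons are printed to show what separates the IgG subclasses. The hinge is the flexible joint of the antibody, and disulfide bonds between the heavy chains form at its cysteines. Each line gives the second coding exon of the gene from the mm10 reference, 5′ to 3′ on the coding (minus) strand, with in-frame cysteine codons (TGT or TGC) in capitals.
Ighg1: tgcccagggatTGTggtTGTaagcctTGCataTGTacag
Ighg2b: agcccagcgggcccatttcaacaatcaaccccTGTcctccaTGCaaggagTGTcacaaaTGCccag
Ighg2c: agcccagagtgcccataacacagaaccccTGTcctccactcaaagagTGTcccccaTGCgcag
Ighg3: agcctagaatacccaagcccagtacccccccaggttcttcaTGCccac
These exons lie at chr12:113329844-113329882, chr12:113307261-113307326, chr12:113288263-113288325 and chr12:113360529-113360576. They are 39, 66, 63 and 48 bases long and hold 4, 4, 3 and 1 cysteine codons.

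Elsewhere the gamma genes share sequence, so reads can be hard to assign among them. The longest coding run found unchanged in both Ighg2b and Ighg3 has 88 bases and lies in their membrane exons (Ighg2b chr12:113304919-113305006, Ighg3 chr12:113358080-113358167). It is printed because a read that falls inside it fits both genes, with no letter in capitals.
Ighg2b and Ighg3: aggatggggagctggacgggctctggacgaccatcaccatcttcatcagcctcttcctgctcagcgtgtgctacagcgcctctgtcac
The share of coding windows of 50 bases that recur unchanged in another constant gene was 9.07% for Ighg2b, 5.75% for Ighg2c, 3.39% for Ighg3 and 0.88% for Ighg1. No such window was found for Ighm, Ighd, Igha, Igkc, Iglc1 or Jchain, and no window of 100 bases recurred for any member. How the authors' counting treated such reads is not given in the sources used here, so the split among Ighg2b, Ighg2c and Ighg3 is uncertain. The reference is the C57BL/6 sequence, and how NZB and NZW alleles align to it was not tested.

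Depth ran from 2.54 to 53.8 M counts, with 2.54 to 15.2 M in control TFH and TFR libraries and at least 24.7 M in all others. T cell markers summed to between 2320 and 5430 CPM (read counts relative to the scaled library total) in every library. Within each subset every treated library lay above every control library. The sums were 2320 to 2930 CPM in control and 5070 to 5430 in treated Tconv libraries, and 3050 to 3100 and 3590 to 4030 in Treg libraries. In TFH libraries they were 2790 to 3020 and 3990 to 4470 CPM, and in TFR libraries 2570 to 2840 and 3600 to 4280. Regulatory markers summed to 1410 to 2140 CPM in Treg and TFR libraries against 96.1 to 114 in Tconv and 460 to 587 in TFH libraries. For these markers, treated Treg and TFR libraries lay above their controls, and the arms overlapped in Tconv and TFH. Follicular markers summed to 1140 to 1240 CPM in control and 813 to 1000 in treated TFH libraries, and to 1280 to 1400 and 811 to 936 in TFR libraries. Treg libraries held 1030 to 1060 CPM in control and 717 to 725 in treated mice, and Tconv libraries 227 to 305 and 280 to 304. Treated TFH and TFR libraries thus lay below the control Treg libraries and above the treated ones. Podocyte transcripts, from kidney, stood out most in 4 libraries: control Tconv 1 and 2 (1110 and 1100 CPM), treated TFH 3 (1320 CPM) and treated TFR 1 (511 CPM). Calls of members that ended without these 4 are named beside the result, and the gene list counts were not repeated without them. Treated Treg 3 held 144 CPM against 18.9 and 19.9 in treated Treg 1 and 2. It missed the rule for a kidney library and stayed in those checks. Mitochondrially encoded genes took 9.50 to 16.9% of counts in control and 1.85 to 3.17% in treated libraries, so library quality or handling and treatment cannot be told apart.

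Immunoglobulin constant genes were more abundant in treated mice in all 4 subsets. In Tconv cells 7 of the 10 members rose and 0 fell (edgeR quasi-likelihood test, adjusted p under 0.05), where 6.89% of all 18789 genes tested rose and 3.05% fell. In Treg cells 5 rose and 0 fell, against 5.17% and 3.56% of all genes. In TFH cells 7 rose and 0 fell, against 16.5% and 5.86%, and in TFR cells 9 rose and 0 fell, against 15.6% and 6.39%. At an unadjusted p under 0.05 edgeR had 8, 7, 7 and 9 members higher and 0 lower, and DESeq2 and limma voom also called 0 lower. Without the 4 kidney libraries 5, 5, 7 and 9 members rose. Under relative log expression scaling the Tconv background changed from 1294 genes higher and 574 lower to 1062 and 746. The 5 members that rose in every subset were Ighm, Ighg1, Igha, Igkc and Jchain. Ighd did not pass the test in any subset.

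Every treated library lay above every control library for 8 members in Tconv, 9 in Treg, 8 in TFH and all 10 in TFR cells. Over all genes tested, 27.5%, 27.4%, 28.5% and 33% were separated in that direction and 15.4%, 19%, 6.81% and 10.4% in the other. The median log2 fold change of the members was 3.05 in Tconv, 2.21 in Treg and 3.19 in TFH cells, and 6.03 in TFR cells, where 4 members had no control read (5.56 with those at their lower bound). The medians over all genes were 0.02, 0.09, 0.42 and 0.40. In bulk RNA, more cells of a type and more RNA per cell cannot be told apart.

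**Figure D1:**
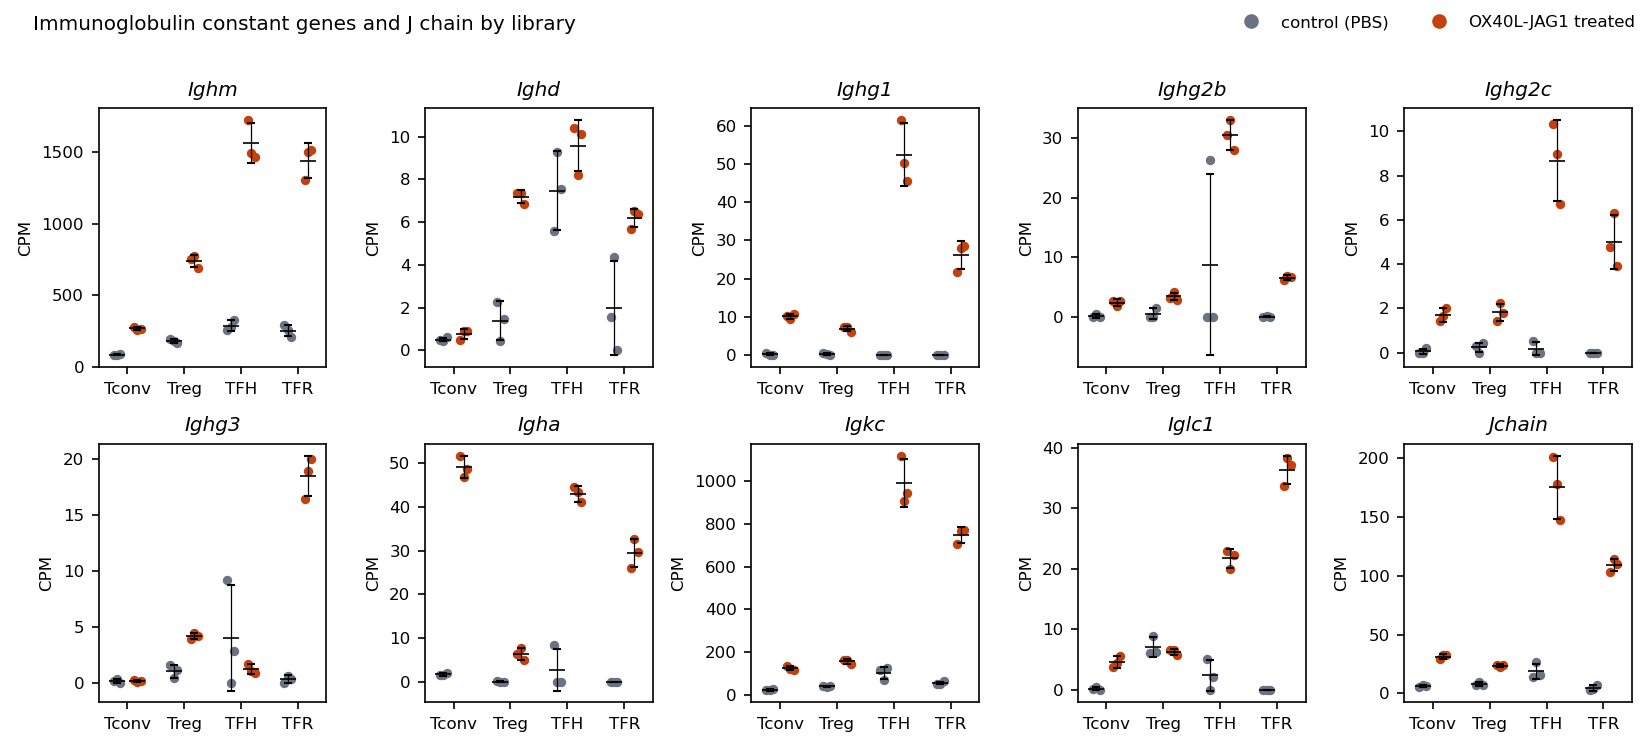
Level of each of the 10 genes in every library (CPM, linear axes with a scale of their own), by subset, with control and treated libraries as points, horizontal lines for the mean and error bars for the SD (n = 3). For Ighm, Igkc and Jchain the treated libraries sit above the control libraries of the same subset without overlap.

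B cell markers did not move in 1 direction with the immunoglobulin genes. Of 21 B cell genes other than immunoglobulins, 20 were tested by edgeR. By that test 0 rose and 0 fell in Tconv, 3 and 1 in Treg, 1 and 1 in TFH, and 4 and 0 in TFR cells. The shares of all genes were 6.89%, 5.17%, 16.5% and 15.6% higher and 3.05%, 3.56%, 5.86% and 6.39% lower, in the same order. In Tconv cells 1 was higher and 4 lower at an unadjusted p under 0.05, DESeq2 called 1 higher and 3 lower, and limma voom 3 and 5. The list's summed level had a control median of 92.3 CPM (51.7 to 93.0) and a treated median of 60.8 (58.6 to 63.4) in Tconv, and 106 (105 to 123) and 282 (265 to 295) in Treg libraries. In TFH libraries it was 284 (228 to 289) and 303 (284 to 307), and in TFR libraries 127 (116 to 128) and 432 (403 to 446). In Tconv cells the lowest control library lay below all treated ones. Ebf1, a gene of this list, stood at 25.2 ± 21.65 CPM in control and 0.145 ± 0.0326 in treated Tconv libraries (SD, n = 3). The part of the kidney libraries control Tconv 1 and 2 in the Tconv sum was not tested. The rises in Treg and TFR came mainly with Cd74, the MHC class II invariant chain of B cells and other antigen-presenting cells, at 68.8 ± 3.42 CPM in control and 196 ± 13.9 in treated Treg libraries and at 75.5 ± 9.09 and 306 ± 22.2 in TFR libraries (SD, n = 3).

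Some narrower B cell markers, picked from this list, were in sum highest on average in control TFH libraries, followed by treated TFH libraries. Summed over Ms4a1 (CD20), Cd79a, Cd79b and Pax5, the mean level was 3.29 ± 0.883 CPM in control and 2.04 ± 0.459 in treated Tconv libraries, and 4.39 ± 0.894 and 7.13 ± 0.196 in Treg libraries (SD, n = 3). In TFH libraries it was 45.4 ± 22.7 and 18.3 ± 2.30, and in TFR libraries 5.37 ± 1.39 and 10.7 ± 1.21. None of Ms4a1, Cd79a and Pax5 passed the test in any subset, and Cd79b fell in TFH cells (15.3 ± 7.77 to 2.54 ± 0.691 CPM, edgeR adjusted p = 0.047). Cd22, another gene of the list, went the other way, with every treated library above every control library in each subset. Its mean went from 0.956 to 7.46 CPM in Tconv and from 3.77 to 36.6 in Treg cells. In TFH cells it went from 7.49 to 43.4 CPM and in TFR cells from 10.6 to 41.0. Only the Treg difference passed the test (edgeR adjusted p = 0.0297). Cd72 was also higher in every treated library in Tconv (means 5.34 and 15.65 CPM) and Treg cells (6.91 and 18.8 CPM), and passed the test in neither. Pou2af1 and H2-Aa were lower in every treated library of both these subsets. By the test, Cd74 and H2-Ab1 rose and Pou2af1 fell in Treg cells. The part of B cell RNA in the members' rise was not tested.

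Plasma cell genes moved in both directions. Of 13 tested, 2 rose and 2 fell in Tconv, 1 and 2 in Treg, 3 and 3 in TFH, and 5 and 1 in TFR cells. Of all genes tested, 6.89%, 5.17%, 16.5% and 15.6% rose and 3.05%, 3.56%, 5.86% and 6.39% fell, in the same order. Mzb1, a chaperone of immunoglobulin assembly, had no control read in TFH cells and 4.21 ± 0.694 CPM in treated ones (edgeR adjusted p = 0.0051). In TFR cells it rose from 0.0323 ± 0.0559 to 2.39 ± 0.219 CPM (edgeR adjusted p = 0.0169). Prdm1, the plasma cell regulator that effector T cells also use, rose from 14.9 ± 6.30 to 57.3 ± 5.28 CPM in TFH and from 67.9 ± 19.2 to 159 ± 9.23 in TFR cells. Xbp1, needed for antibody secretion, fell by 0.45, 0.54 and 0.35 on the log2 scale in Tconv, Treg and TFH cells. Ell2, an elongation factor that favours the secreted heavy chain form, fell in all 4 subsets, by 1.28, 1.16, 1.41 and 0.74. Sdc1 (CD138), the surface marker of plasma cells, passed the test in none, at mean levels of 0.758 to 6.17 CPM.

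**Figure D2:**
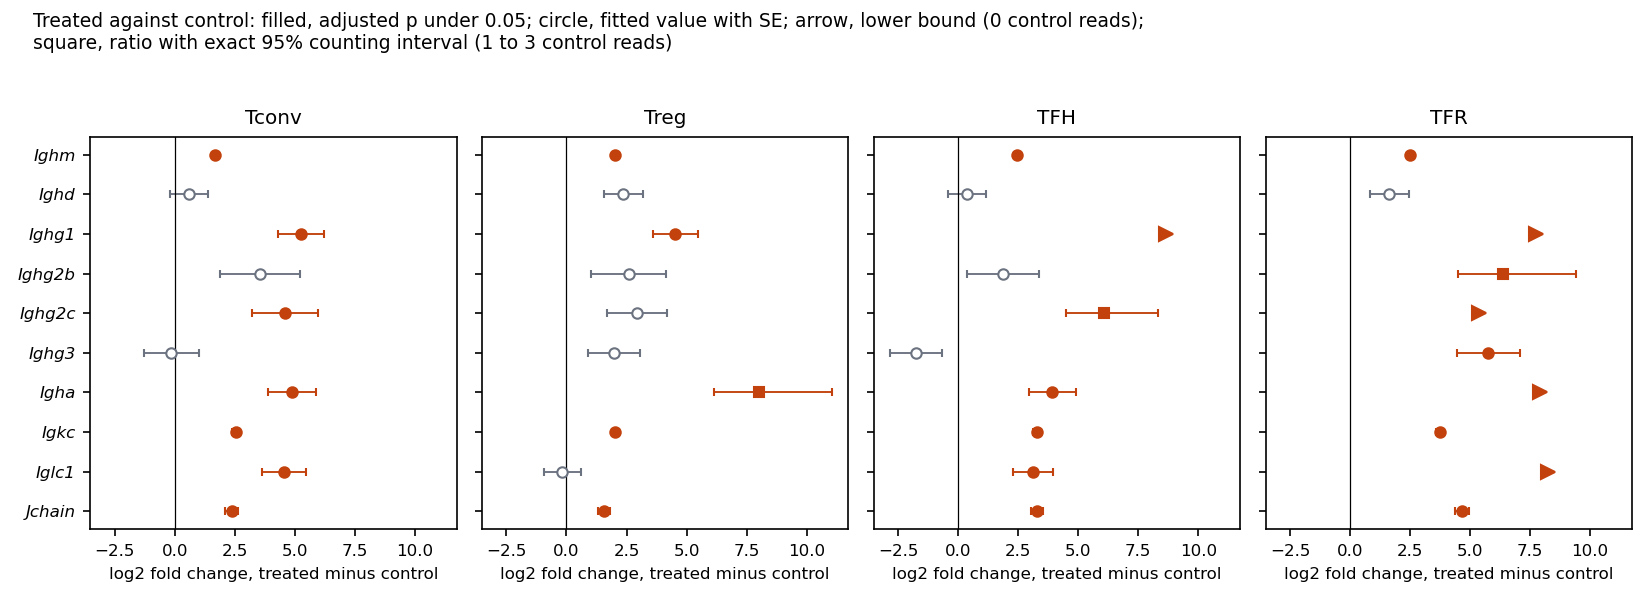
Log2 fold change of treated over control for each gene in each subset. Circles are fitted values with their SE, arrows are lower bounds where no control read was counted, and squares are ratios with an exact 95% counting interval where 1 to 3 control reads were counted. Most points lie right of 0, and Ighg3 lies at or left of 0 in Tconv and TFH cells.

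Ighm, the IgM heavy chain, was the heavy chain gene with most reads in every library. It stood at 79.7, 85.0 and 91.1 CPM in control and 281, 260.3 and 267 CPM in treated Tconv libraries (log2 fold change 1.66 ± 0.11 (SE), edgeR adjusted p = 9.36e-10). In Treg cells it went from 196.5, 178 and 166 to 754, 777 and 693 CPM (2.04 ± 0.12, edgeR adjusted p = 4.25e-11). The treated libraries were all higher, and the gap between arms was several times the spread within either. TFH libraries rose from 255, 277 and 329.7 to 1724, 1498 and 1466 CPM (2.44 ± 0.12, edgeR adjusted p = 3.31e-12). TFR libraries rose from 292.5, 257 and 210.7 to 1303, 1504 and 1518 CPM (2.51 ± 0.12, edgeR adjusted p = 3.66e-12). In order of mean level, control Tconv and control Treg were lowest, and the ranges of control TFR, treated Tconv and control TFH overlapped. Treated Treg came next, and treated TFR and TFH were highest with overlapping ranges.

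Ighd, the IgD heavy chain, which naive B cells splice from the same transcript as Ighm, did not pass the edgeR test in any subset. It lay between 0.428 and 0.602 CPM in control and between 0.479 and 0.919 in treated Tconv libraries, which overlapped (0.59 ± 0.80, edgeR adjusted p = 0.763). Control TFH libraries held 5.56, 9.27 and 7.56 CPM and treated ones 10.4, 8.22 and 10.1, which also overlapped (adjusted p = 0.765). Control Treg libraries held 2.27, 0.436 and 1.45 CPM and treated ones 7.35, 7.37 and 6.83. The groups did not overlap, but the difference of 2.37 ± 0.82 missed the threshold (edgeR adjusted p = 0.0829), while DESeq2, limma voom and a fit of the 2 groups alone called it (adjusted p = 0.000446, 3.82e-05 and 0.00202). In TFR cells the values were 1.55, 4.36 and 0 against 5.70, 6.53 and 6.36 CPM (1.63 ± 0.81, edgeR adjusted p = 0.156). These groups did not overlap either, and the difference was called by DESeq2 (adjusted p = 0.0342) and by edgeR without control TFR 2 (2.90, adjusted p = 0.0256).

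Ighg1, the IgG1 heavy chain, was the gamma gene that rose in every subset. It had 0 reads in all 3 control TFH libraries and 61.5, 50.3 and 45.5 CPM in the treated ones, at least 402-fold higher against a floor of 3 reads over the control group (edgeR adjusted p = 2.87e-05). Control TFR libraries also had 0 reads, and the treated ones rose to 21.9, 28.0 and 28.6 CPM, at least 216-fold higher (edgeR adjusted p = 4.39e-05). The other subsets had a few control reads. In Tconv cells Ighg1 went from 0.636, 0.178 and 0 to 10.3, 9.49 and 10.7 CPM (5.24 ± 0.96, edgeR adjusted p = 0.0011), and in Treg cells from 0.476, 0.400 and 0 to 7.31, 7.35 and 6.13 CPM (4.53 ± 0.92, adjusted p = 0.00362). No control library reached the level of any treated one. All Ighg1 reads of control Tconv cells (16 and 5) came from the kidney libraries control Tconv 1 and 2, and without these the call was kept with no control read left. The control TFH and TFR libraries are the shallowest, so a level as low as that of control Tconv cells would give few reads there.

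Ighg2b and Ighg2c, the IgG2b and IgG2c heavy chains, were called in fewer subsets. Ighg2c rose in Tconv cells (0, 0 and 0.190 to 1.41, 1.63 and 2.03 CPM, edgeR adjusted p = 0.0357), but that call ended when any 1 of 5 libraries was left out, which were control Tconv 1 and 2 and all 3 treated ones (adjusted p 0.0681 to 0.145). Without the kidney libraries control Tconv 1 and 2 it also ended (adjusted p = 0.766). In TFH cells 3 control reads and 871 treated reads gave a ratio of 66.5 (exact 95% interval 22.7 to 323, edgeR adjusted p = 0.0109), a call that ended in a fit of the TFH groups alone (0.0713). In TFR cells Ighg2c had no control read and 4.78, 6.32 and 3.91 CPM in treated libraries, at least 41.3-fold higher (edgeR adjusted p = 0.00237). Its Treg values, 0.293, 0 and 0.413 against 1.45, 2.22 and 1.79 CPM, did not overlap but missed the threshold (adjusted p = 0.186).

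For Ighg2b the control TFH group rested on 1 library: control TFH 2 held 26.3 CPM (68 reads), the other two 0, and the treated libraries 30.6, 33.0 and 28.0 CPM. The difference of 1.85 ± 1.51 was not called (edgeR adjusted p = 0.373), and without control TFH 2 it was called (adjusted p = 0.00116). In TFR cells 2 control and 889 treated reads gave a ratio of 82.0 (exact 95% interval 22.6 to 678, edgeR adjusted p = 0.0336), and leaving out any 1 of the 6 libraries ended the call (adjusted p 0.0501 to 0.101). Tconv (0.0795, 0.535 and 0 against 2.75, 1.81 and 2.78 CPM) and Treg (0.0733, 0.0363 and 1.61 against 3.24, 4.21 and 2.94 CPM) missed it, at adjusted p = 0.18 and 0.413. In both, every treated library was nevertheless above every control library.

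Ighg3, the IgG3 heavy chain, had a pattern of its own among the subsets. Treated TFR libraries held 16.5, 18.97 and 20.1 CPM against 0, 0.654 and 0.379 in control ones (5.76 ± 1.32, edgeR adjusted p = 0.00325). Treated Treg libraries held 3.91, 4.42 and 4.22 CPM against 1.61, 0.436 and 1.12, which did not overlap but missed the threshold (1.98 ± 1.08, adjusted p = 0.351). TFR was the only subset in which Ighg3 passed the edgeR test. Treated TFH libraries held 1.70, 1.09 and 0.865 CPM against 9.21, 0 and 2.86 in control ones (-1.75 ± 1.08, adjusted p = 0.237). Tconv libraries lay at or below 0.321 CPM in both arms (-0.15 ± 1.15, adjusted p = 0.973), and that sign turned without the kidney libraries (5.08).

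Igha, the IgA heavy chain, was highest in treated Tconv and TFH cells. In Tconv libraries it went from 1.47, 1.57 and 1.97 to 51.8, 46.9 and 48.7 CPM (4.87 ± 1.01, edgeR adjusted p = 0.00265). With control Tconv 3 as the only control library left after removing the kidney libraries, the difference was 4.65 and the call was lost (adjusted p = 0.187). In Treg cells 2 control reads and 973 treated reads gave a ratio of 256 (exact 95% interval 70.7 to 2117, edgeR adjusted p = 0.000626). Control TFR libraries had no read and treated ones 26.0, 32.6 and 29.8 CPM, at least 243.5-fold higher (adjusted p = 0.000104). In TFH cells all 48 control reads came from control TFH 1 (8.34 CPM), and the treated libraries held 44.7, 43.4 and 41.1 CPM (3.92 ± 0.99, adjusted p = 0.0081). In a fit of the TFH groups alone the Igha call ended (adjusted p = 0.187). In every subset the lowest treated library was above the highest control library.

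Igkc, the kappa light chain constant gene, was per kb of exon the most abundant member in treated Tconv, TFH and TFR cells. There it reached 221 to 253, 1708 to 2105 and 1328 to 1453 CPM per kb, against 138 to 149, 777 to 914 and 691 to 805 for Ighm. In treated Treg cells Ighm was the higher, at 367 to 412 against 268 to 306 CPM per kb. Igkc levels went from 20.3, 19.4 and 24.6 to 135, 122 and 118 CPM in Tconv (2.54 ± 0.16, edgeR adjusted p = 2.3e-10) and from 40.0, 35.3 and 39.2 to 163, 163 and 142 CPM in Treg libraries (2.03 ± 0.15, adjusted p = 5.67e-09). Arms were far apart in both subsets. In TFH libraries they went from 115, 66.8 and 122 to 1120.0, 908 and 946 CPM (3.27 ± 0.16, edgeR adjusted p = 5.04e-12), and in TFR libraries from 51.9, 52.0 and 62.0 to 706, 766 and 773 CPM (3.76 ± 0.17, adjusted p = 1.62e-12).

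Iglc1, a lambda light chain constant gene, split the subsets. Treg cells held it already in control mice, at 6.05, 8.93 and 6.24 CPM, and treated ones at 6.51, 6.64 and 5.70 CPM (-0.17 ± 0.76, edgeR adjusted p = 0.962), so the arms overlapped. Control TFR libraries had no read in any of the 3, and treated ones held 33.8, 38.3 and 37.1 CPM, at least 300.7-fold more (adjusted p = 1.01e-05). Tconv libraries rose from 0.119, 0.464 and 0 to 3.75, 4.51 and 5.65 CPM (4.56 ± 0.92, adjusted p = 0.00207). All 16 control Tconv reads came from the kidney libraries control Tconv 1 and 2, and without these the call was kept with no control read left. TFH libraries rose from 5.04, 0 and 2.11 to 23.0, 19.9 and 22.4 CPM (3.12 ± 0.84, adjusted p = 0.0122), a call that ended in a fit of the TFH groups alone (0.127).

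Jchain, the joining chain of secreted IgM and IgA, rose in all 4 subsets. It went from 5.25, 6.74 and 6.12 to 28.9, 32.2 and 32.3 CPM in Tconv libraries (2.37 ± 0.25, edgeR adjusted p = 6.44e-07). In Treg libraries it went from 6.96, 9.84 and 6.99 to 24.4, 22.4 and 24.1 CPM (1.57 ± 0.24, adjusted p = 0.000133). Treg and Tconv cells did not differ by the test in either arm (adjusted p = 0.36 and 0.373). TFH libraries went from 13.9, 26.3 and 15.5 to 201, 178 and 147 CPM (3.28 ± 0.26, edgeR adjusted p = 9.25e-09). TFR libraries held 2.81, 3.60 and 7.01 CPM in control mice, a range that overlaps those of control Tconv and Treg, and reached 104, 114 and 109.6 CPM (4.67 ± 0.29, adjusted p = 1.7e-10).

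The isotype make-up can be read within a library as a share of heavy chain reads, which does not depend on library scaling. Switched reads (the 4 gamma genes and Igha) made up 2.84, 2.96 and 2.30% in control Tconv libraries and 19.1, 18.6 and 19.3% in treated ones. In TFR libraries they made up 0, 0.333 and 0.180% of control and 5.44, 5.79 and 5.52% of treated reads. The 0 in control TFR 1 is 0 of 3037 reads, which allows a share of up to 0.0988%. Reads are not independent molecules, so this limit and the intervals cover counting error only. Treg libraries held 1.26, 0.487 and 1.84% in control and 2.84, 3.19 and 2.80% in treated mice. These 3 subsets showed no overlap between arms, with an exact two-sided permutation p of 0.1 for each, the smallest that 3 against 3 libraries allow (0.148 after adjustment over 40 shares). Control TFH libraries ranged from 0.841 to 8.41% and overlapped the treated ones at 7.64 to 8.32% (exact permutation p = 0.4).

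**Figure D3:**
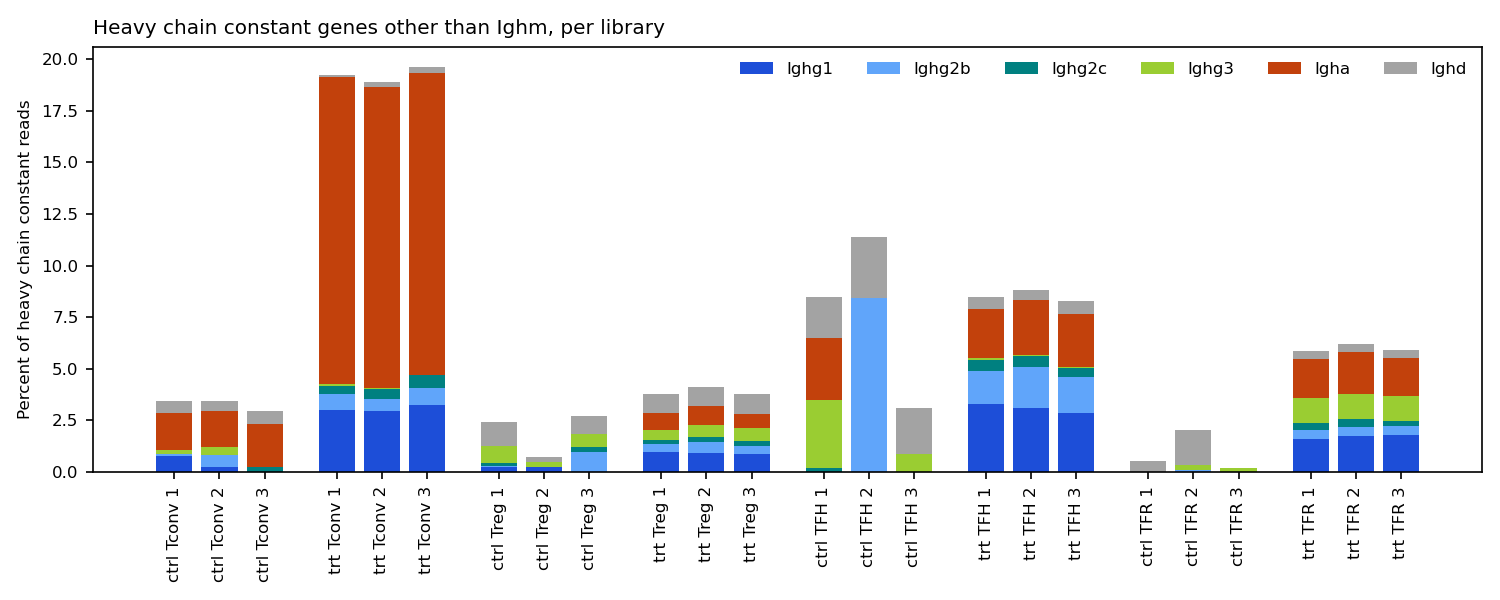
Stacked bars for each of the 24 libraries give the percent of heavy chain reads in each constant gene other than Ighm, from an axis that starts at 0. Ighm takes the rest, from 80.7% on average in treated Tconv to 99.1% in control TFR libraries, and Igha is the largest part of the bars in treated Tconv libraries.

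The isotypes within the switched reads differed in make-up. In treated Tconv cells Igha was 77.3 ± 1.43% of switched reads, with Ighg1 at 16.01 ± 0.578%, Ighg2b at 3.83 ± 0.703% and Ighg3 at 0.219 ± 0.121% (SD, n = 3). Treated Treg cells spread more evenly, at 27.8 ± 2.24% Igha, 30.6 ± 2.20% Ighg1, 15.2 ± 0.983% Ighg2b and 18.5 ± 2.08% Ighg3. Treated TFH cells held 31.8 ± 1.82% Igha, 38.4 ± 2.49% Ighg1, 22.5 ± 1.81% Ighg2b and 0.883 ± 0.229% Ighg3. Treated TFR cells held 34.4 ± 0.884% Igha, 30.4 ± 1.52% Ighg1, 7.74 ± 0.389% Ighg2b and 21.6 ± 1.06% Ighg3. Ighg3 thus made up 17.1 to 22.5% of switched reads in every treated Treg and TFR library and at most 1.14% in every treated TFH and Tconv library. These shares were not tested between subsets. The unswitched Ighd share of heavy chain reads was lower after treatment in Tconv (0.569 to 0.230%) and TFH cells (2.40 to 0.562%) without overlap, with an exact permutation p of 0.1 for each.

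The light chain balance was read from the member genes first. The kappa share, Igkc over Igkc plus Iglc1, went from 86.9, 79.8 and 86.2% in control to 96.2, 96.1 and 96.2% in treated Treg libraries. In TFR libraries it went from 100% in all 3 control libraries, with 327 to 536 reads each, to between 95.2 and 95.4% in treated ones. Tconv means were 99.0 ± 1.21% and 96.4 ± 0.939%, also without overlap, and each of the 3 differences had an exact permutation p of 0.1. TFH means were 98.0 ± 2.11% and 97.8 ± 0.149% and overlapped (p = 0.8, exact permutation test). The Tconv and TFR separations depend on Iglc1 being the only lambda gene counted. With Iglc2, Iglc3 and Iglc4 added, the lambda share was 3.95, 8.25 and 6.61% in control and 4.41, 6.03 and 5.88% in treated Tconv libraries, which overlap, with a lower mean after treatment. Control TFR 2 then held 6.10%, from 31 Iglc2 reads, above all 3 treated TFR libraries (5.52, 5.83 and 5.49%), beside 0 in control TFR 1 and 3. In Treg libraries the lambda share stayed separated, at 14.7 to 21.7% in control and 5.26, 5.22 and 5.48% in treated ones.

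Jchain reads as a share of Jchain plus heavy chain reads were higher after treatment in 3 subsets. The means were 6.40 ± 0.620 and 8.54 ± 0.762% in Tconv, 5.62 ± 1.85 and 9.29 ± 0.737% in TFH, and 1.84 ± 1.21 and 6.66 ± 0.300% in TFR libraries (SD, n = 3). In Treg libraries the share was lower after treatment, at 4.16 ± 0.954 and 2.99 ± 0.276%. The arms overlapped in no subset, each with an exact permutation p of 0.1. Igkc per kb relative to the summed heavy chains per kb went from 0.867 to 1.39 in Tconv, 1.18 to 2.10 in TFH and 0.790 to 1.76 in TFR libraries on average, and stayed at 0.740 and 0.723 in Treg libraries.

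**Figure D4:**
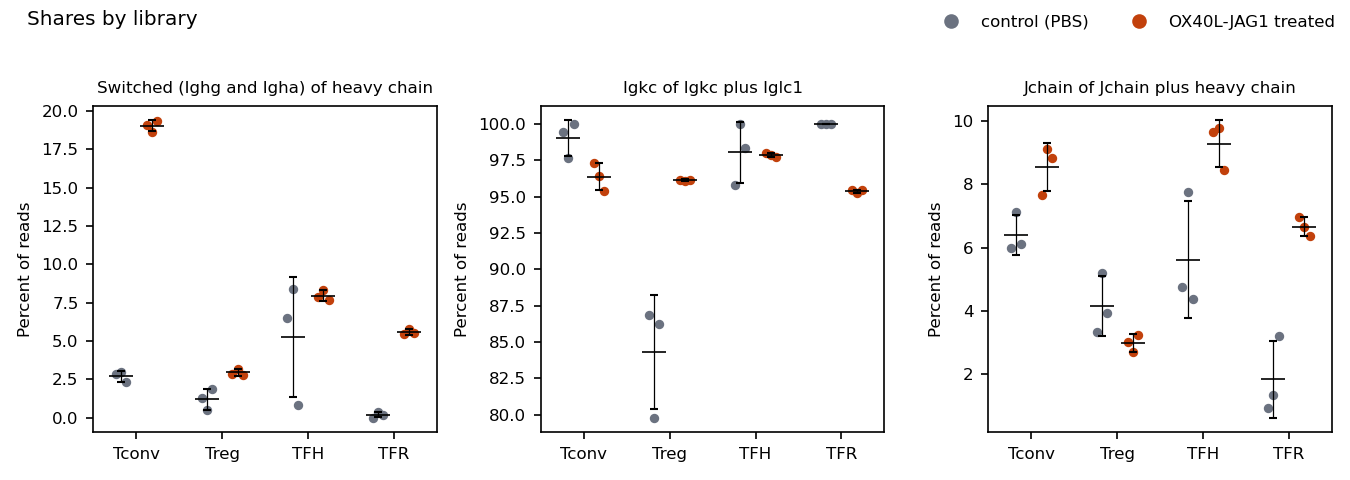
Switched, kappa and J chain shares in every library (percent of the reads named on each axis), control and treated, by subset, with horizontal lines for the mean and error bars for the SD (n = 3). Axes do not start at 0. The Treg kappa share is lowest in the 3 control libraries (79.8 to 86.9%).

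Between subsets of control mice, Treg against Tconv cells had 3 members higher and 1 lower, where 5.9% and 3.4% of all genes were. Ighm was higher by 1.08 ± 0.11, Iglc1 by 5.17 ± 0.94 and Igkc by 0.83 ± 0.15 on the log2 scale (edgeR adjusted p = 4.81e-07, 0.000827 and 0.000705). The Igkc call was lost without the kidney libraries (0.63, adjusted p = 0.163). Igha was lower, with 2 reads against 143, a ratio of 0.0150 (exact 95% interval 0.0018 to 0.0552, edgeR adjusted p = 0.0067). TFH against Tconv cells had 7 higher and 0 lower (9.89% and 15.1% of all genes), namely Ighm, Ighd, Ighg2b, Ighg3, Igkc, Iglc1 and Jchain, with Ighm higher by 1.75 ± 0.12 and Igkc by 2.26 ± 0.16. Without the kidney libraries the Ighd and Ighg2b calls were lost (adjusted p = 0.15 and 0.112), limma voom ended the Iglc1 and Jchain calls (0.059 and 0.0777), and a fit of the groups alone ended the Jchain call (0.135). The Ighg2b call there rested on control TFH 2, without which the value was -5.67. It was also lost without control Tconv 1 or control Tconv 3 (adjusted p 0.0872 to 0.107).

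TFR against TFH cells of control mice had 5 members lower and 0 higher (8% and 7.82% of all genes): Ighg2b, Igha, Igkc, Iglc1 and Jchain. Jchain, at 4.47 ± 2.23 against 18.6 ± 6.72 CPM (SD, n = 3), and Igkc, at 55.3 ± 5.79 against 101.5 ± 30.2 CPM, were lower in every TFR library. The Igha and Ighg2b reads of control TFH cells came from 1 library each (control TFH 1 and control TFH 2), and without that library the difference was 0 for Igha and 4.35 for Ighg2b. The Ighg2b call also ended without any 1 control TFR library (adjusted p 0.0605 to 0.102). Limma voom and a fit of these 2 groups alone called 0 of the 10, with 4 and 1 at an unadjusted p under 0.05, against 7 by edgeR. TFR against Treg cells had Ighm and Igkc higher and Iglc1 and Jchain lower (2.28% and 7.46% of all genes, or 618 and 1198 genes in place of 429 and 1402 with relative log expression scaling). Iglc1 was at least 58.5-fold lower, from 562 reads to 0 (edgeR adjusted p = 0.000468). The Igkc and Jchain calls there (adjusted p = 0.0315 and 0.039) were not stable to leaving out 1 library. The Igkc call ended without any control Treg library or without control TFR 3 (adjusted p 0.0633 to 0.12), and the Jchain call without any control Treg library or without control TFR 1 or 2 (0.0527 to 0.165). Without the kidney libraries the Jchain call ended too (adjusted p = 0.0752), and limma voom and a fit of the groups alone ended the Ighm call (0.399 and 0.07) and the Igkc call (0.673 and 0.147).

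In treated mice, Treg against Tconv cells had Ighm, Ighd and Ighg3 higher and Igha lower (6.37% and 5.54% of all genes). Ighd lay at 7.18 ± 0.305 against 0.762 ± 0.246 CPM, Ighg3 at 4.19 ± 0.257 against 0.142 ± 0.0837, and Igha at 6.35 ± 1.27 against 49.1 ± 2.48 CPM. The Igha call (edgeR adjusted p = 0.0409) ended without any 1 of the 6 libraries (0.101 to 0.149). The Ighd call ended without any 1 treated Tconv library (0.0532 to 0.0868), and the Ighg3 call without treated Tconv 2 or 3 (0.0604 and 0.0737). TFH against Tconv cells had Ighm, Ighd, Igkc and Jchain higher and none lower (10.3% and 7.77%), by 2.54 ± 0.12, 3.65 ± 0.87, 2.99 ± 0.16 and 2.49 ± 0.25. Igha, by contrast, stood at 43.1 ± 1.80 CPM in TFH and 49.1 ± 2.48 in Tconv cells and was not called (adjusted p = 0.91).

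TFR against Treg cells of treated mice had Ighm, Igkc and Jchain higher (1.78% of all genes) and none lower (2.83%), by 0.96 ± 0.11, 2.26 ± 0.15 and 2.21 ± 0.25 (edgeR adjusted p = 1.15e-05, 3.72e-08 and 6.02e-06). TFR against TFH cells had Ighg3 alone higher (4.61% of all genes) and none lower (4.96%), at 18.5 ± 1.83 against 1.22 ± 0.431 CPM (3.92 ± 1.17, edgeR adjusted p = 0.0355). That call ended without any 1 of the 6 libraries (0.0638 to 0.141) and without the kidney libraries (0.121), although the 6 values did not overlap. Of the 10 members, 7 were lower and 2, with Ighg3, higher in every treated TFR library than in every treated TFH library. The share of all genes separated in this way was not counted here. These comparisons share libraries with each other and with those of treatment, so they are given side by side.

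The treatment effect itself was compared between follicular and other cells. It was larger in TFH than in Tconv cells for Ighm (by 0.78 ± 0.16 on the log2 scale, edgeR adjusted p = 0.00316), Igkc (0.73 ± 0.21, adjusted p = 0.0243) and Ighg1 (adjusted p = 0.0275), where 14.4% of all genes had a larger effect. None of the 10 had a smaller one (5.22% of all genes). Without the kidney libraries only the Ighm call remained of these 3 (Igkc adjusted p = 0.0838, Ighg1 1.0). The effect was larger in TFR than in Treg cells for Jchain (3.09 ± 0.36, adjusted p = 3.14e-05), Igkc (1.73 ± 0.21, adjusted p = 5.37e-05), Iglc1 (adjusted p = 0.000288) and Ighg1 (adjusted p = 0.0467), with a background of 5.24%, and smaller for none (2.26%). For these Ighg1 and Iglc1 differences the control follicular group holds 0 reads, so no size is given. The control Treg group held 562 Iglc1 and 24 Ighg1 reads, and the control Tconv group 21 Ighg1 reads. The Ighg1 calls are the least firm, since leaving out 1 library ended the one in TFR for 11 of 12 libraries, all but control Treg 3 (adjusted p 0.067 to 0.103). The one in TFH ended without control Tconv 1, control TFH 3 or any treated Tconv library (0.0521 to 0.0872), and the Igkc one without treated Tconv 2 or 3 (0.0581 and 0.0625). The difference for Ighm between TFR and Treg cells was 0.47 ± 0.16 (adjusted p = 0.0766).

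Variable (V) segments are joined to the constant genes in rearranged transcripts and absent from germline ones. Summed Ighv reads gave 3.25 ± 0.273 CPM in control and 23.4 ± 2.12 in treated Tconv libraries, and 5.04 ± 1.12 and 24.9 ± 0.985 in Treg libraries (SD, n = 3). In TFH libraries they gave 14.2 ± 6.58 and 161 ± 22.2, and in TFR libraries 0.129 ± 0.224 and 114 ± 10.4. Control TFR cells thus held 4 Ighv reads in all, beside 6491 Ighm reads. Per 100 heavy chain constant reads, Ighv reads numbered 0.0440 in control TFR against 2.73 to 4.46 on average in the other control groups and 7.43 in treated TFR libraries. Igkv reads per 100 Igkc reads numbered 6.09 in control TFR, 33.3 to 47.2 in the other control groups and 33.3 to 42.2 in the treated groups.

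**Figure D5:**
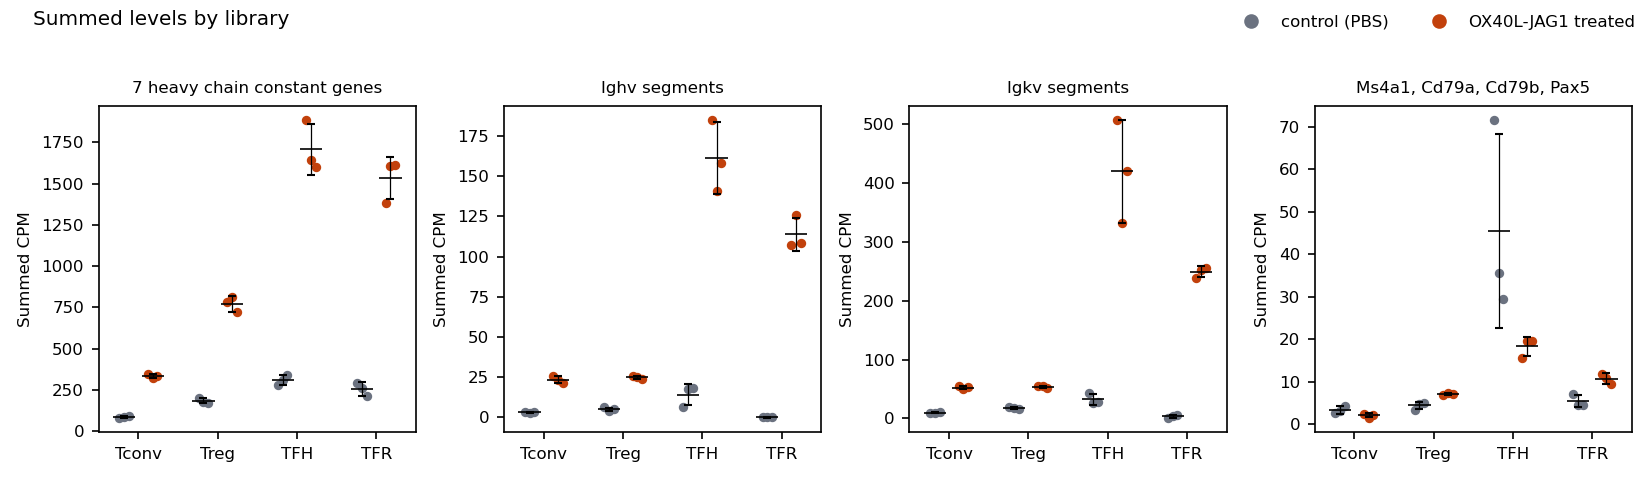
Summed CPM of heavy chain constant genes, Ighv segments, Igkv segments and 4 B cell genes (Ms4a1, Cd79a, Cd79b, Pax5) in every library, with horizontal lines for the mean and error bars for the SD (n = 3), on linear axes. The constant and V sums are higher in treated groups, and the B cell sum is highest on average in control TFH libraries (45.4 CPM).

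Of 346 V segments listed, 133 were tested for treatment. In Tconv cells 35 rose and 2 fell, in Treg 47 and 3, in TFH 61 and 3, and in TFR 91 and 0. Among all genes tested, 6.89%, 5.17%, 16.5% and 15.6% rose and 3.05%, 3.56%, 5.86% and 6.39% fell, in the same order. Between 48 and 72 Ighv segments had at least 3 reads in each treated library, so many segments were seen rather than a few. Thinned to 2537901 reads per library, the expected number of Ighv segments with a read was at most 8.41 in every control library and at least 27.9 in every treated one. This evens out library totals and not Ighv reads, which summed to at most 18.5 CPM in control and at least 21.5 in treated libraries. More segments can therefore follow from the higher level alone, and the breadth of segment use at equal Ighv reads was not tested. In control libraries, which held at most 272 Ighv reads each against at least 771 in treated ones, some segments took larger parts. Ighv3-8 made up 33.7 and 46.7% of Ighv reads in control Treg 1 and 3, and Igkv4-50 made up 33.2 and 38.8% of Igkv reads in the same libraries. Igkv12-89 made up 35.2% in control Treg 2, 21.6% in control TFH 1, and 23.6 and 21.9% in treated TFH 2 and 3. Ighv1-83 made up 23.9% of Ighv reads in control Treg 2 and Ighv1-63 23.5% in control TFH 3. Iglv1 made up 61.1 to 85.5% of Iglv reads in the 12 treated libraries.

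Genes that act on immunoglobulin loci or with immunoglobulins were counted beside the shares of all genes. In Tconv, Treg, TFH and TFR cells 6.89%, 5.17%, 16.5% and 15.6% of all genes rose and 3.05%, 3.56%, 5.86% and 6.39% fell. Of 15 class switch genes tested, 1, 3, 3 and 2 rose in Tconv, Treg, TFH and TFR cells, and 1 fell in each of TFH and TFR cells. Prkdc and H2afx, of DNA break repair, were among the risers, and Trp53bp1 fell in TFH and TFR cells. Of 16 genes of B cell receptor signalling, 1, 2, 1 and 3 rose, and 2 fell in each of Tconv and TFH cells. Those that fell in Tconv cells were Lyn (7.92 ± 4.19 to 0.559 ± 0.374 CPM) and Cd81 (66.7 ± 45.6 to 15.6 ± 0.958 CPM). The Cd81 arms overlapped there, and the part of the kidney libraries was not tested. Ptpn6, a phosphatase that T cells also hold, rose in all 4 subsets by 1.37, 1.23, 0.99 and 1.01. Of 6 receptors of immunoglobulin tested out of 10, Fcgrt alone rose, in TFH and TFR cells.

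By correlation of deviations from group means over 24 libraries, on log2(CPM + 0.5), the 5 genes most like the summed heavy chains were Aurka, Eef1g, Fdx1, Epb41 and Tmem177 (Pearson r 0.845 to 0.862 among 13521 genes). Those most like Jchain were Tnfsf15, Leng1, Gm42869, Ythdf2 and AI413582 (r 0.89 to 0.926). These are descriptions: the 6 control TFH and TFR libraries, which are the shallowest, hold 54.7% and 78.2% of the squared deviations. Across the levels themselves r ran from -0.782 (Epb41) to 0.669 (Aurka) for the heavy chains and from 0.007 (Leng1) to 0.448 (AI413582) for Jchain.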

How the data were processed

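For 24 libraries the authors deposited counts of reads for each Ensembl gene, made per the labels' protocols from column-purified, DNase-treated total RNA with ribosomal depletion and a CORALL kit. STAR, featureCounts and mm10 are named in the submitters' processing notes, while their versions, the strand setting and the handling of multiply aligned reads were not given in the sources used here. GENCODE M21 matched 38872 of 39056 IDs, and the IDs of Ighg2b, Ighg2c and Ighg3 carry an older version than in M21, so their exon lengths may differ. edgeR 4.0.16 (R 4.3.3) was run with filterByExpr by group (18789 genes kept), TMM scaling and 1 model of 8 group means on all libraries. Tests were two-sided quasi-likelihood F tests, adjusted by Benjamini-Hochberg over the genes kept, at a threshold of 0.05, and all comparisons share a common biological coefficient of variation of 0.617. CPM uses TMM-scaled totals. The test was tried on simulated data, in which only genes of higher level were changed. The recovery of changes at low counts was not tried. Shares were compared with exact permutation tests (scipy 1.17.1, Python 3.11.15), and DESeq2 1.42.0 and limma 3.58.1 were alternatives. Folds against groups with 0 reads use a floor of 3 reads over the group.

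The members and gene lists were chosen with earlier results of these data known. The genes named are the 10 members, the other constant genes, the V segments over 20% of a locus with at least 100 reads, the 5 genes most alike with a mean of at least 1 CPM, and members of the lists, of which some were named after their values were seen. Kidney libraries are those with podocyte markers above 10 CPM in sum and 10 or more times the lowest sum in the same group. No 2 libraries of a group agreed within counting noise (chi-square per degree of freedom at least 4.70). No column was left out. Depth ran from 2.54 to 53.8 M counts.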

Additional observations from a re-analysis of the deposited data

Results flagged for a closer look

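For 7 results the treatment effect differed between 2 subsets by the test of the difference itself (edgeR quasi-likelihood test, adjusted over all genes). TFH against Tconv cells differed for Ighm (adjusted p = 0.00316), Ighg1 (0.0275) and Igkc (0.0243). TFR against Treg cells differed for Ighg1 (0.0467), Igkc (5.37e-05), Iglc1 (0.000288) and Jchain (3.14e-05). In all 7 the effect was larger in the follicular subset, whose control libraries are the shallowest (2.54 to 15.2 M counts). The part of depth in these differences was not tested.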

How the results depend on the processing

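Counts of members called moved by over 1.5 times under other tests. Limma voom with quality weights called 9 for treatment in Treg cells, and in control mice 0 for TFR against TFH, 4 for TFH against Tconv and 1 for TFR against Treg. In treated mice it called 8 for Treg against Tconv, 8 for TFR against TFH, 9 for TFH against Tconv and 9 for TFR against Treg. It called 0 for the difference of effects between TFH and Tconv cells. Fits of only the groups compared called 8 for treatment in Treg, 4 for treatment in TFH, 0, 3 and 1 in those control comparisons, 8, 8, 9 and 9 in those treated ones, and 1 for the difference between TFH and Tconv. In treated mice DESeq2 called 3 for TFR against TFH, 8 for TFH against Tconv and 5 for TFR against Treg, and it called 7 for the difference between TFR and Treg. Without the kidney libraries, 0 members were called for TFR against TFH in treated mice and 1 for the difference between TFH and Tconv. Leaving out 1 library each gave 6 to 7, 5 to 5, 7 to 8 and 8 to 9 members for treatment (Tconv, Treg, TFH, TFR), then, in the order of subsets just given, 4 to 4, 4 to 6, 6 to 8 and 2 to 3 between control subsets and 1 to 3, 0 to 0, 4 to 4 and 3 to 3 between treated ones, and 1 to 5 and 3 to 4 for the differences of effects. The lowest of 1 for TFH minus Tconv came without treated Tconv 2 or treated Tconv 3, and the highest of 5 without control TFH 2. Shares per kb of exon moved the treated minus control difference to 12.7 (switched, Tconv), 4.198 (switched, TFR), -5.39 (kappa, TFR) and 3.75 percentage points (J chain, TFR), since the switched genes, Iglc1 and Jchain differ in length from the others, and without the kidney libraries the switched share in Tconv differed by 16.7. Over left-out libraries the sign turned for kappa in TFH (-1.31 to 0.79), and among single heavy chain genes for the shares of Ighm (-2.741 to 1.414) and Ighg2b in TFH (-2.409 to 1.794), Ighd (-0.056 to 0.387), Ighg2b (-0.042 to 0.419) and Ighg3 in Treg (-0.183 to 0.096) and Ighd in TFR (-0.69 to 0.141). Signs turned for Ighg3 in Tconv (5.08 without the kidney libraries, 0.87 without control Tconv 2, 0.21 without treated Tconv 2, with -0.733 the lowest over left-out libraries), Iglc1 in Treg (0.039 without control Treg 2, with -0.265 the lowest) and Ighg2b of control mice in TFR against TFH (4.35 without control TFH 2, with -10.987 the lowest) and TFH against Tconv (-0.20 by voom, -5.67 without control TFH 2, with 7.673 the highest). The cause was not tested. Over all genes the calls for treatment were 1868 in Tconv (626 to 10500 over the settings other than left-out libraries), 1640 in Treg (1381 to 6500), 4200 in TFH (1373 to 5633) and 4134 in TFR cells (2773 to 5689). Replicate numbers do not pair the samples (2 of 36 pairs of same-numbered libraries over 0.1, r from -0.786 to 0.675, own number best in 9). With the replicate block, members called were 7, 5, 7 and 9 for treatment, 4, 4, 6 and 4 and then 3, 1, 4 and 3 between subsets in the order above, and 3 and 3 for the differences of effects. Low counts limit Ighd and the gamma genes, above all in control TFH and TFR libraries.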

Other observations

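Other constant genes of the loci were at low levels. Ighe, the IgE heavy chain, had no read in any control library and 0.378, 0.979 and 0.668 CPM in treated Tconv libraries (edgeR adjusted p = 0.0518), and at most 0.404 CPM in any other library. Iglc2 had no read in control TFH and a mean of 11.7 ± 4.996 CPM in treated TFH libraries (SD, n = 3), at least 90.1-fold more with the floor of 3 reads (edgeR adjusted p = 0.000621). Iglc3 had no read in control TFR and 2.15 ± 0.4997 CPM in treated TFR libraries, at least 17.8-fold more (edgeR adjusted p = 0.000923). The exons of Iglc2 overlap those of Iglj2, and Iglc2 and Iglc3 share 14.3% of their 50-base coding windows, so their split is uncertain. Iglc4 had 8 reads in treated TFH 2, 4 in treated TFR 2 and none in the other libraries.

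Joining and diversity segments of the heavy chain locus were read too. Summed Ighj levels were 0.0610 ± 0.0260 CPM in control and 0.585 ± 0.255 in treated Tconv libraries, against 2.61 ± 0.864 and 8.76 ± 0.950 in Treg libraries (SD, n = 3). In TFH libraries they were 4.40 ± 5.68 and 6.55 ± 0.646, and in TFR libraries 4.345 ± 3.95 and 7.975 ± 1.27. The diversity segment Ighd4-1, 11 bases long, lay at 0.880, 2.00 and 1.28 CPM in control and 7.27, 6.36 and 6.66 in treated Treg libraries. Treated TFR libraries held 5.55, 7.08 and 6.52 CPM of it and treated TFH libraries 2.765, 4.20 and 3.23. It lay at or below 0.285 CPM in every Tconv library. Per 100 heavy chain constant reads, Ighj reads numbered 1.42 ± 0.461 in control Treg and 0.0700 ± 0.033 in control Tconv libraries (SD, n = 3). Control TFH libraries, at 1.39 ± 1.83, ran from 0 to 3.46, and control TFR libraries, at 1.855 ± 1.92, from 0.166 to 3.95. Treated libraries held 1.14 ± 0.079 in Treg, 0.174 ± 0.073 in Tconv, 0.387 ± 0.061 in TFH and 0.520 ± 0.070 in TFR cells. These differences were not tested.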
